A study of Mus musculus with 34 samples.

Results

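The genes described here are 3 CXC chemokines that attract neutrophils, Cxcl1, Cxcl2 and Cxcl5, and 2 CXC receptors, Cxcr1 and Cxcr2. They were chosen by gene symbol, through the RefSeq accession of each array probe, and are 5 of 20660 genes named on the array. Each had 1 probe. In the lung, Cxcl1 and Cxcl2 are released by macrophages and epithelium within hours of an irritant or infection, and Cxcl5 in the mouse comes largely from the epithelium. The chemokines bind Cxcr2 on neutrophils, a receptor coupled to inhibitory G proteins, and draw the cells out of the blood and into the airspaces. Cxcr1 is the mouse relative of a human interleukin 8 receptor and is less studied than Cxcr2. Transcription of the ligands is switched on by NF-kappaB downstream of interleukin 1, tumour necrosis factor and interleukin 17.

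Lung RNA was measured on 34 two-colour Agilent arrays. The female C57BL/6 mice were 5 to 7 weeks old and had been given 1 intratracheal instillation, in 40 µl, of a carbon nanotube material, and lungs were collected on day 28. The 3 materials carry code names. At 54 µg there were 5 arrays of NRCWE-043, 5 of NRCWE-044 and 5 of NRCWE-045. At 18 µg there were 5 arrays of NRCWE-043, 6 of NRCWE-044 and 3 of NRCWE-045. The 6 exposed groups were set against 5 control arrays, and the labels do not say what the control mice received. On every array lung RNA carried Cy5 and a reference RNA pooled from 11 mouse cell lines carried Cy3. The labels do not name the animal behind an array, so the p-values below measure the spread between arrays. All 11 markers of alveolar type 2 cells, the surfactant-making cells that define lung tissue, were well above background on all 34 arrays.

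The promoters of Cxcl1 and Cxcl2 are shown because the 2 genes lie side by side on chromosome 5 and share a run of bases that matches NF-kappaB. That of Cxcr1, next to Cxcr2 on chromosome 1, is shown because the results below turn on it. Each is the 250 bases before the gene's start, from RefSeq on build GRCm38.p6, 5′ to 3′, at chr5:90890995-90891244 (+), chr5:90903649-90903898 (+) and chr1:74194632-74194881 (-). The capitals mark matches to the general NF-kappaB consensus.
Cxcl1: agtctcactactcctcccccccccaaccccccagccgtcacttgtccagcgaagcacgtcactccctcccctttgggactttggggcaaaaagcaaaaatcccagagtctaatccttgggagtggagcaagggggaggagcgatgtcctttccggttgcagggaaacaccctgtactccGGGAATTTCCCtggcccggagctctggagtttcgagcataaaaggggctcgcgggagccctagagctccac
Cxcl2: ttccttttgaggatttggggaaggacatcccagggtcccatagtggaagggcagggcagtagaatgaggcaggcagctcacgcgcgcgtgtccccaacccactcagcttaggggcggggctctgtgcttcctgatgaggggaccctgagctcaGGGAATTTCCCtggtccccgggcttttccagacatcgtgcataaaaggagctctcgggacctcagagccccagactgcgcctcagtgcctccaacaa
Cxcr1: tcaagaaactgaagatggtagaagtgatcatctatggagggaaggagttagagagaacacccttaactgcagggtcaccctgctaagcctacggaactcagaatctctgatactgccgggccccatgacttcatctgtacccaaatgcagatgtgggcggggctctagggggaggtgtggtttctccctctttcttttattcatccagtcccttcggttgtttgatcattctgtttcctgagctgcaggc
On the gene's own strand the consensus was found at bases -71 to -62 of Cxcl1 and -97 to -88 of Cxcl2, counted back from the start, and on the other strand 1 base nearer to it, so that each capital run holds 2 overlapping matches. The run itself is the same in both genes. Of 27025 promoters of that length, 1894 hold the consensus on either strand (7.01%). Of the 9 other CXC ligand genes with a promoter entry, 2 hold it, Cxcl3 and Cxcl10. It is not among the bases printed for Cxcr1, nor in those of Cxcr2. The TATA box letters TATAAAA (5.30% of promoters), the PU.1 core GAGGAAGT (2.44%) and the C/EBP letters TTGCNNAA (9.55%), searched on both strands, were found in none of the 4 genes with an entry. Cxcl5 is not in the promoter table.

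How far each gene could be measured differed. The lung signal was well above background on 34 of 34 arrays for Cxcr2, on 33 for Cxcr1, on 29 for Cxcl5, on 23 for Cxcl1 and on 2 for Cxcl2. In the reference RNA, Cxcl1 and Cxcl5 were above background on all 34 arrays, Cxcr2 on 6, Cxcl2 on 2 and Cxcr1 on none (0). The values are log2 ratios of lung over reference RNA, to which an offset of 50 was added on both sides before the logarithm. They therefore understate changes of dim spots, and a ratio below 0 means less signal in lung than in the cell lines. Tests were run on 29316 units (named genes, or accessions without a name) well above background in lung on at least 3 arrays, which leaves 4 of the 5 genes.

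At 54 µg, Cxcr1 was higher on each of the 15 arrays than on any of the 5 controls, by 1.04 ± 0.29 on the log2 scale (SE, mean of the 3 materials). Its reference channel was at background, and with the scanner software's own subtraction it was 2.41 ± 0.61, and 14 of the 15 arrays exceeded every control. Cxcl5 and Cxcl1 averaged 1.04 ± 0.57 and 0.59 ± 0.32 above the controls but overlapped them. Cxcr2 differed by 0.02 ± 0.20, and Cxcl2 stayed near background in every group. None of the 4 tested genes passed an adjusted p of 0.05 in limma in any of 18 comparisons. The background was as empty: 0% of the 29316 units passed in each comparison with the controls (0 called), although 5.61% had an unadjusted p under 0.05 in that of the 54 µg mean. In a bulk lung sample, more cells that carry an RNA and more RNA per cell cannot be told apart.

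**Figure D1:**
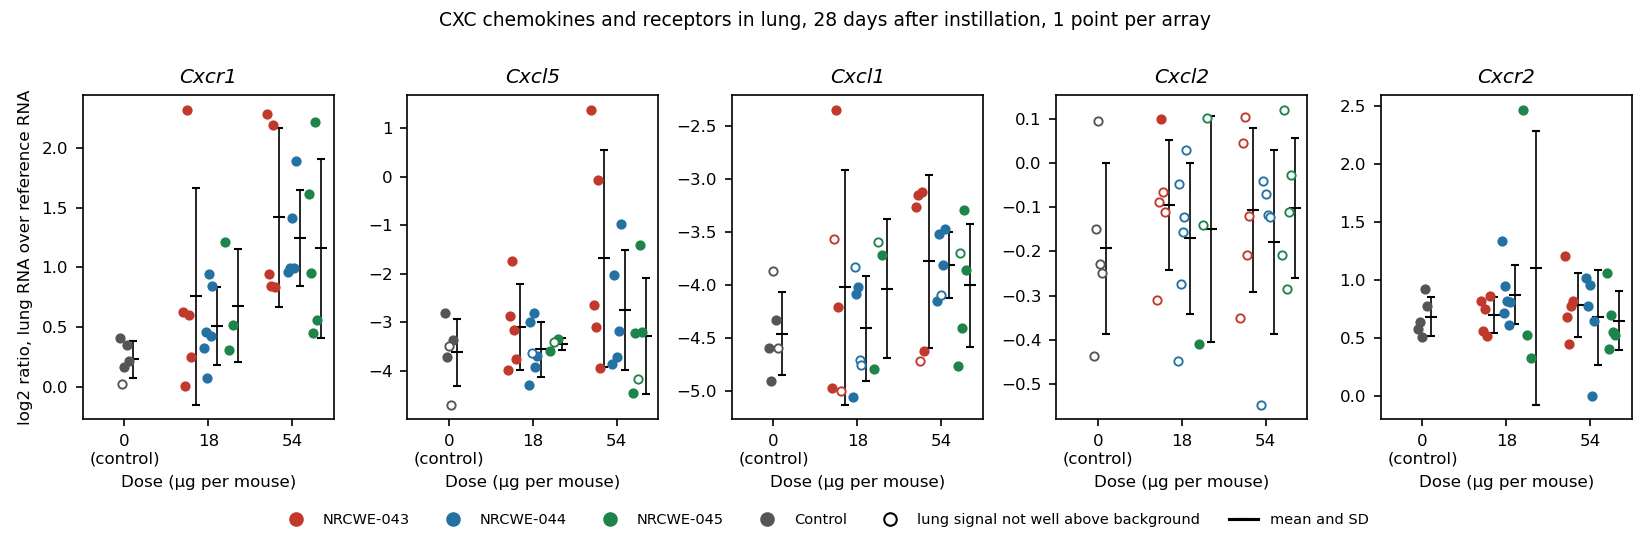
Log2 ratio of lung over reference RNA (y axis, a scale of its own for each gene) against dose in µg per mouse (x axis) for the 5 genes. Each point is 1 array, coloured by material, open where the lung signal was not well above background, and the bars are the mean and SD of a group. All 15 Cxcr1 points at 54 µg lie above the 5 controls, Cxcl5 spreads most at 54 µg of NRCWE-043, and nearly all Cxcl2 points are open.

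Among the ligands, Cxcl5 had the widest spread. At 54 µg of NRCWE-043 its log2 ratios were 1.37, -2.65, -3.10, -0.07 and -3.95, against -2.82, -3.72, -3.48, -4.70 and -3.37 on the controls. The raw lung intensity was 4903 on replicate 1 and 1242 on replicate 4, and 124 to 177 on the other 3 arrays of that group, against 79 to 170 on the controls over a local background of 72 to 74. Thus 2 arrays stood far above the controls, 1 stood just above them and 2 lay within their range. The group mean was 1.94 ± 0.70 above the controls (95% interval 0.51 to 3.37), with an adjusted p of 0.751 in limma. Without replicate 1 the difference was 1.17, and with the scanner software's own background subtraction it was 3.16 (adjusted p = 0.942). The adjusted p ranged over 0.195 to 1.000 across all the alternatives to that comparison.

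At 54 µg of NRCWE-044 the Cxcl5 log2 ratios were -3.87, -2.02, -3.71, -3.18 and -0.97, which put 2 of 5 arrays above every control. At 54 µg of NRCWE-045 they were -4.45, -3.22, -4.18, -1.40 and -3.20, with 1 array above every control. In NRCWE-044 replicate 5 was the highest and replicate 2 came next, in NRCWE-045 replicate 4 stood alone, and the other arrays lay among the controls. The differences from the controls were 0.87 ± 0.70 and 0.33 ± 0.70. Without the highest array they were 0.42 and -0.15. Over the 15 arrays at 54 µg, 6 exceeded every control, and the exact permutation test of the mean gave p = 0.172 (two-sided, 15504 splits). This test and those below shuffle arrays over the slides they share. With the scanner software's background subtraction the mean difference was 1.98 (limma, adjusted p = 0.999). Cxcl5 above every control was thus seen on some arrays of each material and not on all of them.

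Cxcl1, the main early neutrophil attractant of mouse lung, was low in lung relative to the cell lines on every array. Its log2 ratios at 54 µg were -3.27, -3.15, -4.72, -3.13 and -4.63 for NRCWE-043. They were -4.15, -3.52, -4.10, -3.81 and -3.48 for NRCWE-044. They were -4.77, -3.70, -4.41, -3.30 and -3.86 for NRCWE-045, against -4.60, -4.91, -3.87, -4.33 and -4.60 on the controls. In each material 3 of 5 arrays lay above every control and the other 2 lay among them, so the groups overlapped. The differences were 0.68, 0.65 and 0.45 (SE 0.39 each), and that of the 3 materials together had an adjusted p of 0.919 in limma. The exact permutation test over 15 and 5 arrays gave p = 0.0453 for Cxcl1, unadjusted, and takes no account of slides, although the controls averaged -4.76 on slide 1 and had -3.87 on slide 2. With slide as a fixed block the mean difference was 0.48 ± 0.21 (limma, adjusted p = 0.422). On slide 3 the mean of the 3 arrays at 54 µg differed from the control by -0.08, and 1 of the 3 lay above it. With the scanner software's background subtraction the mean difference was 1.60 ± 0.61, with an adjusted p of 0.889. Only 3 of the 5 controls and 12 of the 15 arrays at 54 µg had a Cxcl1 signal well above background, so the lowest ratios carry little signal.

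Cxcl2, a partner of Cxcl1 made mostly by macrophages, could not be measured. Its lung intensity was 71 to 98 at 54 µg, against 69 to 83.5 on the controls, over a local background of 67 to 83.5 across the series. It was well above background on 0 of 15 arrays at 54 µg and 0 of 5 controls. The 2 arrays on which it was above background were replicate 3 of NRCWE-043 at 18 µg, with an intensity of 138.5, and replicate 1 of NRCWE-045 at 18 µg, with 140. Its log2 ratios, -0.55 to 0.12 at 54 µg against -0.44 to 0.10 on the controls, compare signals at background on both sides, and no fold is given.

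Among the receptors, Cxcr1 separated the 54 µg arrays from the controls. Its log2 ratios were 2.28, 0.95, 0.84, 2.19 and 0.83 at 54 µg of NRCWE-043 and 0.96, 0.99, 1.41, 0.99 and 1.89 at 54 µg of NRCWE-044. They were 1.62, 0.95, 0.45, 2.22 and 0.56 at 54 µg of NRCWE-045, against 0.41, 0.02, 0.16, 0.35 and 0.21 on the controls. The lowest array at 54 µg, replicate 3 of NRCWE-045, was just above the highest control, and 4 arrays reached 1.89 or more. The raw lung intensity was 121 to 514 at 54 µg, against 102 to 119 on the controls, whose local background was 72 to 79. Of 29276 units with a value on all these arrays, 7 lay wholly above the controls in the same way (0.0239%), so Cxcr1 was 1 of few. The others were Slc16a6, Cyth4, Rgs16, Gda, Lrrc8d and 1 accession without a name.

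The differences from the controls were 1.19 ± 0.35 for NRCWE-043 (95% interval 0.47 to 1.90), 1.02 ± 0.35 for NRCWE-044 (0.30 to 1.73) and 0.93 ± 0.35 for NRCWE-045 (0.21 to 1.64). Their adjusted p-values in limma were 0.540, 0.652 and 1.000, and that of the 3 materials together was 0.550, with an interval of 0.46 to 1.63. By unadjusted p, 0.000959, Cxcr1 ranked 49 of the 29316 units in that mean. The exact permutation test over 15 and 5 arrays gave p = 0.000129, the smallest it can give two-sided. It is unadjusted for the 10 such tests run on the 5 genes and 2 doses. With no overlap its value is fixed, so it adds nothing to the counts above. Within each material, 5 of 5 arrays therefore lay above every control. The same was true of 0.331% of the units for NRCWE-043, of 0.676% for NRCWE-044 and of 0.417% for NRCWE-045.

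Because the reference RNA gave no Cxcr1 signal above background, the difference was also taken from the lung channel alone. It was then 1.20 ± 0.33 (adjusted p = 0.440 in limma), with 15 of 15 arrays above every control. In the authors' deposited series table the mean difference was 1.06 ± 0.28, again with 15 of 15. With the scanner software's background subtraction, given above, the adjusted p was 0.553. The adjusted p of the mean was 0.193 to 1.000 across the alternatives.

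**Figure D2:**
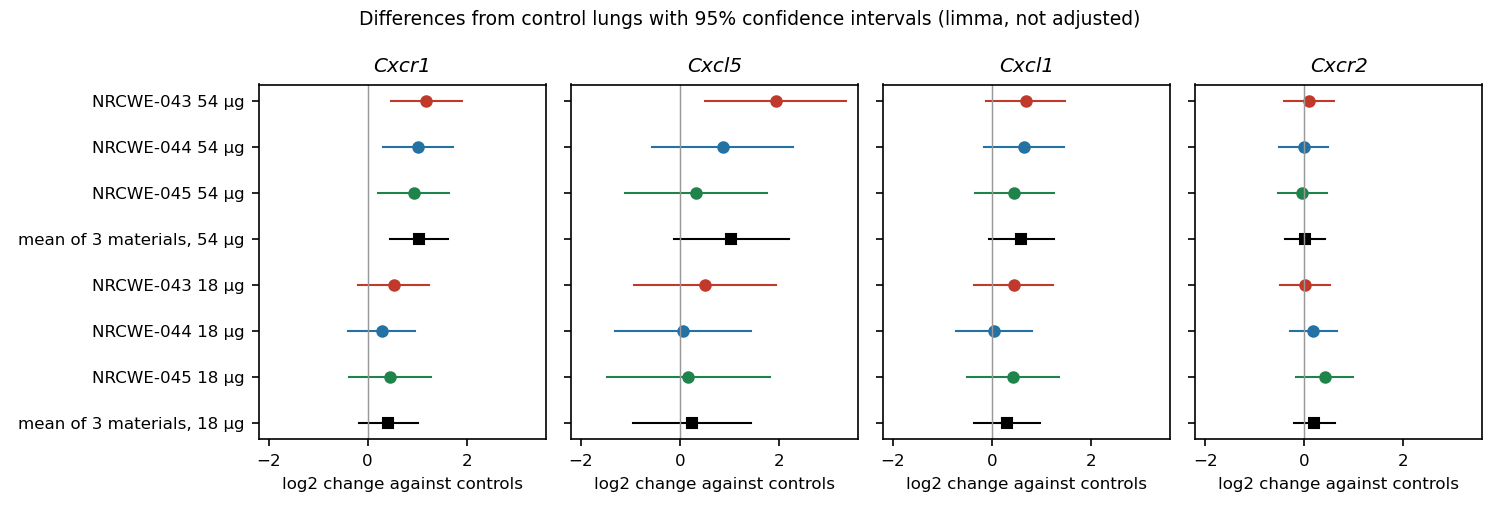
Difference in log2 ratio from the 5 controls (x axis) with its 95% confidence interval in limma, unadjusted, for each dose of each material and for the mean of the 3 materials (rows). The 4 Cxcr1 intervals at 54 µg lie above 0, as does that of Cxcl5 at 54 µg of NRCWE-043, and those of Cxcr2 all include 0.

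The second receptor, Cxcr2, showed no such difference. Its log2 ratios at 54 µg were 1.21, 0.68, 0.44, 0.78 and 0.82 for NRCWE-043, 1.02, 0.77, 0.96, -0.01 and 0.65 for NRCWE-044 and 1.06, 0.40, 0.70, 0.55 and 0.52 for NRCWE-045. The controls had 0.57, 0.63, 0.51, 0.92 and 0.77. The arrays at 54 µg lay on both sides of the controls, 4 above all of them and 3 below all of them. The interval of the mean difference was -0.39 to 0.43, and the exact permutation test gave p = 0.861. The highest Cxcr2 value of the series, 2.47, was on replicate 1 of NRCWE-045 at 18 µg, whose partners had 0.52 and 0.33.

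At 18 µg Cxcr1, Cxcl5 and Cxcl1 lay closer to the controls than at 54 µg, and Cxcr2 did not. The Cxcr1 log2 ratios were 0.63, 0.01, 2.32, 0.60 and 0.25 for NRCWE-043 and 1.21, 0.31 and 0.52 for NRCWE-045. For NRCWE-044 the lowest was 0.07, the median 0.44 and the highest 0.95. Of the 14 arrays, 9 exceeded every control and 1 fell below all of them. The mean difference was 0.42 ± 0.29 (limma adjusted p = 0.999), and the exact permutation test gave p = 0.0642. Cxcl5 differed by 0.25 ± 0.59, Cxcl1 by 0.30 ± 0.33 and Cxcr2 by 0.21 ± 0.20 at this dose. The Cxcr2 value rested on replicate 1 of NRCWE-045, without which it was -0.02. The Cxcl5 and Cxcl1 values of replicate 3 of NRCWE-043, -1.74 and -2.35, were the highest of the 18 µg arrays.

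Between doses, Cxcr1 was 0.62 ± 0.21 higher at 54 than at 18 µg in the mean of the 3 materials (95% interval 0.20 to 1.05, limma adjusted p = 1.000). The difference was 0.66 within NRCWE-043, 0.74 within NRCWE-044 and 0.48 within NRCWE-045. Single arrays moved these values: without replicate 3 of NRCWE-043 at 18 µg the first was 1.05, and without replicate 4 of NRCWE-045 at 54 µg the last was 0.22, so the materials have no firm order. All 5 arrays at 54 µg of NRCWE-044 exceeded all 6 at 18 µg, which 0.341% of the units did, and the doses overlapped in the other 2 materials. Cxcl5 was 0.79 ± 0.42 higher at 54 than at 18 µg and Cxcl1 0.29 ± 0.24 higher, with intervals that include 0. Cxcr2 was 0.19 ± 0.15 lower at 54 µg on the same scale, a difference of -0.19, with an interval of -0.49 to 0.11. Without replicate 1 of NRCWE-045 at 18 µg the difference was 0.04, and with the scanner software's background subtraction 0.11, so its direction is not settled.

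Between materials at a matched dose, 6 pairs were compared, with p-values adjusted over all units. At 54 µg the largest difference was that of Cxcl5 between NRCWE-043 and NRCWE-045, 1.61 ± 0.70 (95% interval 0.18 to 3.04, limma adjusted p = 0.889), where 0.00341% of the units passed (1 called). For Cxcr1 the 3 pairs at 54 µg differed by 0.17, 0.26 and 0.09 (SE 0.35 each). The interval that reached furthest from 0, NRCWE-043 against NRCWE-045, was -0.46 to 0.97, which leaves room for a difference about as large as that from the controls. At 18 µg the 12 differences ran between -0.41 and 0.45, with a smallest adjusted p of 0.639. In the pair NRCWE-043 against NRCWE-045 at 18 µg 0.430% of the units passed (126 called), and in NRCWE-043 against NRCWE-044 0.0102% (3 called), none of them (0) among the 4 genes.

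The arrays lay on 6 slides, each scanned on a day of its own, and 4 slides held controls. Slide 1 held 2 controls and slides 2, 3 and 5 held 1 each, so most comparisons within a slide rest on a single control array. Cxcr1 was higher at 54 µg than on the control or controls of the same slide on 4 of 4 slides, by 0.55 to 1.40. All 11 arrays at 54 µg on those slides exceeded the controls of their slide. Both counts follow from the lack of overlap over all slides, so they are no further check of it. The mean of Cxcl5 was also higher on 4 of 4 slides, by 0.85 to 1.28, with 9 of the 11 arrays above the controls of their slide. On slide 1 that was 1 of 3 arrays, and without it, replicate 1 of NRCWE-043, the difference there was -0.89. Cxcl1 was higher on 3 of 4 slides, with 8 of the 11 arrays above. With slide as a fixed block the mean Cxcr1 difference was 1.06 ± 0.30, with an adjusted p of 0.208 in limma. For Cxcr2 that fit gave 0.16, against 0.02 without the block. Cxcr2 was above the controls of its slide on 6 of the 11 arrays at 54 µg. At 18 µg the counts, of 9 arrays, were 8 for Cxcr2, 7 for Cxcr1, 6 for Cxcl5 and 6 for Cxcl1. The share of all units with such counts was not computed. The 2 slides without controls held the other 4 arrays at 54 µg.

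**Figure D3:**
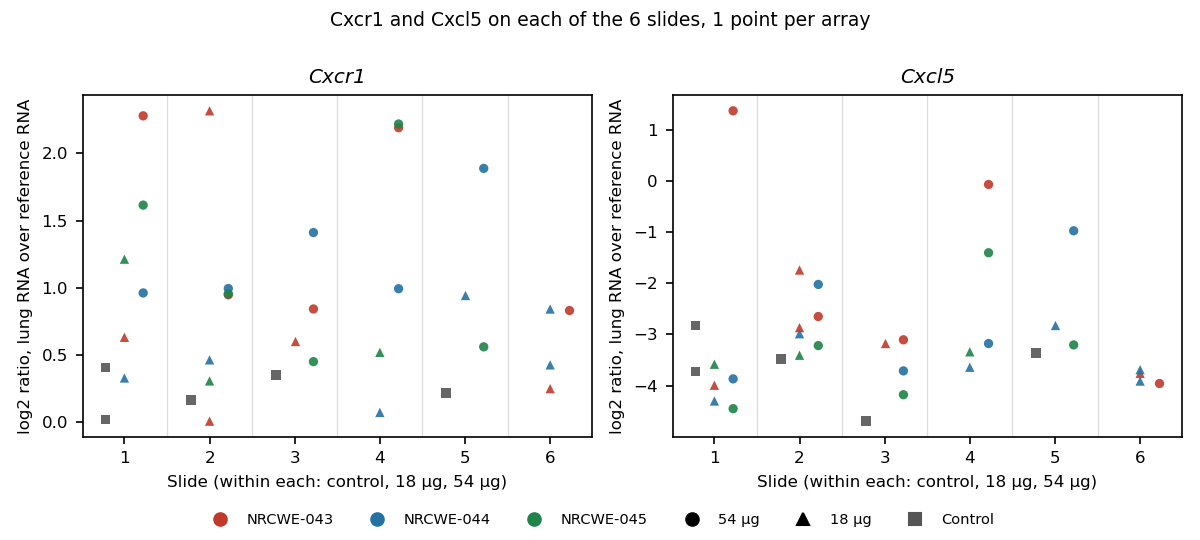
Log2 ratio of lung over reference RNA (y axis) on each of the 6 slides (x axis), for Cxcr1 on the left and Cxcl5 on the right. Each symbol is 1 array, and within a slide controls, 18 µg and 54 µg run from left to right. On slides 1, 2, 3 and 5 the Cxcr1 values at 54 µg lie above the controls of the slide, as they lie above all 5 controls. Slides 2, 3 and 5 have 1 control each.

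The highest values of Cxcr1 and Cxcl5 fell on the same arrays. The 5 highest arrays of Cxcl5 and the 5 highest of Cxcr1 were the same 5: replicates 1 and 4 of NRCWE-043, replicate 5 of NRCWE-044 and replicate 4 of NRCWE-045 at 54 µg, and replicate 3 of NRCWE-043 at 18 µg. Of these, 4 were also among the 5 highest of Cxcl1, and 1 was among the 5 highest of Cxcr2. These arrays lay on 4 of the 6 slides. As a description over the 34 arrays, which share the reference RNA and the slides, Cxcl5 and Cxcr1 correlated at r = 0.70 (rho 0.44), and at 0.66 with group means removed and 0.70 with slide means removed. Without the 2 highest Cxcl5 arrays the r was 0.56. Cxcl1 and Cxcl5 correlated at 0.69 (rho 0.78) and Cxcl1 and Cxcr1 at 0.55 (rho 0.43), the second at 0.79 with slide means removed. Ranks over the 14 arrays at 18 µg gave less, with a rho of 0.27 for Cxcl5 and Cxcr1 and of -0.01 for Cxcl1 and Cxcr1. Cxcr2 correlated at 0.17 with Cxcr1, -0.05 with Cxcl5 and -0.29 with Cxcl1, and at 0.23, 0.06 and 0.06 with slide means removed. Its 5 highest arrays were all on slide 1.

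Each gene's nearest partners over the 34 arrays, among 17102 named genes with a value on every array, were ranked by r. For Cxcl1 they were Ccl3 (0.889), a macrophage chemokine, Lhfpl2 (0.851) and Tvp23a (0.806), and the last dropped to 0.395 with slide means removed. For Cxcl5 they were Ccl7 (0.880), a monocyte attractant, Noxo1 (0.846), an organiser of an NADPH oxidase, and Ly6f (0.845). The rank correlations of Noxo1 and Ly6f with Cxcl5 were lower, 0.503 and 0.467, and without the 2 highest Cxcl5 arrays their r was 0.718 and 0.645. For Cxcr1 they were Wfdc17 (0.840), a secreted protein of activated macrophages, Ccl9 (0.826), a chemokine, and Lilrb4a (0.809), an inhibitory receptor of myeloid cells. For Cxcr2 they were Asprv1 (0.834), a protease, Il1r2 (0.831), a decoy receptor for interleukin 1 carried by neutrophils, and Cstdc4 (0.828). Their rank correlations with Cxcr2 were 0.612, 0.620 and 0.696, and without the highest and the lowest Cxcr2 array the r was 0.722, 0.727 and 0.630.

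The rest of the pathway was read from gene lists. In the mean of the 3 materials at 54 µg against the controls, no gene of any list passed the threshold (0 called), and 49.3% of all units lay above 0 with a median of -0.002. Of 11 tested cytokines and cytokine receptors upstream of these chemokines, 9 lay above 0, with a median of 0.26. Their mean per array correlated with Cxcr1 at 0.61, with Cxcl5 at 0.65, with Cxcl1 at 0.65 and with Cxcr2 at 0.04. Il6 had 0.45 ± 0.19 and Il33, an epithelial alarm cytokine, 0.32 ± 0.24. Il17a, Il23a, Il1a, Csf3, Il36a and Il36g were not well above background on 3 arrays and were not tested. Of 18 NF-kappaB signalling and feedback genes 13 lay above 0, with a median of 0.04, led by Nfkbie (0.30 ± 0.13), an inhibitor of NF-kappaB, and Birc3 (0.27 ± 0.12), a ubiquitin ligase of the pathway.

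Of 24 genes for signalling and adhesion behind the receptors, 15 lay above 0, with a median of 0.08. Rac2, the GTPase of neutrophil movement, had 0.45 ± 0.17 and Vav1, an activator of such GTPases, 0.45 ± 0.12. Of 10 other CXC ligands 3 lay above 0, with a median of -0.08, and those furthest from 0 were Cxcl9 (-0.20 ± 0.41), induced by interferon gamma, and Cxcl12 (-0.17 ± 0.10), which retains leukocytes in marrow. Cxcl3 and Cxcl11 were not tested. Of 8 other CXC and atypical receptors 5 lay above 0, with a median of 0.09, and Cxcr5, the follicle-homing receptor of B cells, had 0.39 ± 0.22 while the scavenging receptor Ackr2 had -0.36 ± 0.16.

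Neutrophil markers were set beside the receptors. Of 23 tested granule and surface markers 16 lay above 0 in the 54 µg mean, with a median of 0.08. By material it was 16 for NRCWE-043 (median 0.09), 16 for NRCWE-044 (0.22) and 8 for NRCWE-045 (-0.07). Those furthest from 0 in the mean were Camp, a granule peptide (0.41 ± 0.60), and Cd177, a surface protein (0.40 ± 0.22). The marker Ly6g was not on the array. Their mean log2 ratio per array was 0.80 to 1.66 at 54 µg, with a median of 1.13, against 0.85 to 1.36 on the controls, with a median of 1.04, so the groups overlapped throughout. This mean correlated with Cxcr2 at r = 0.69 (rho 0.49), with Cxcr1 at 0.24 (rho 0.29), with Cxcl5 at 0.16 and with Cxcl1 at -0.21. Cxcr2 also correlated with other lists, at 0.58 with the other CXC ligands, 0.56 with mast cell markers and 0.55 with B cell markers. Slide means were not removed from these correlations, and the highest Cxcr2 arrays shared a slide. The array with the highest Cxcr2, replicate 1 of NRCWE-045 at 18 µg, also had the highest neutrophil mean, 2.02, and the highest B cell mean, 1.87. Without it, a check added after seeing the data, the r of the neutrophil mean was 0.46 with Cxcr2 (rho 0.44) and 0.24 with Cxcr1 (rho 0.26).

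**Figure D4:**
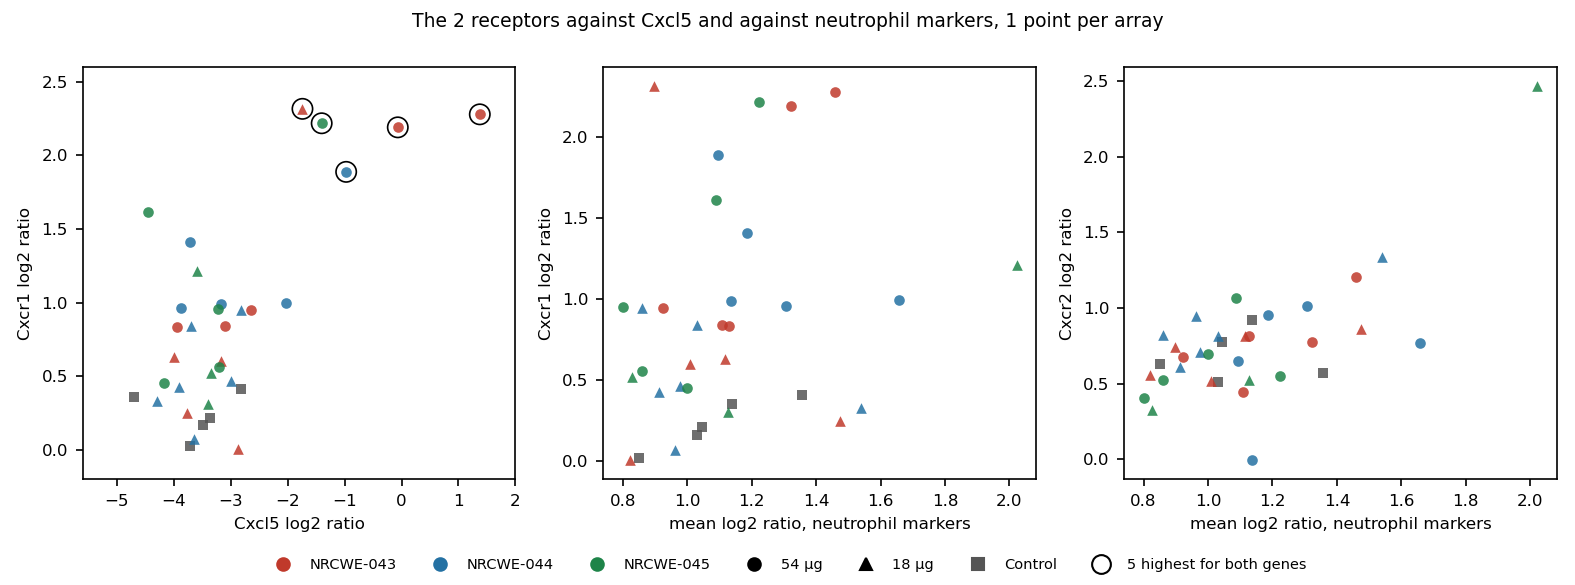
Cxcr1 against Cxcl5 (left), Cxcr1 against the mean log2 ratio of 23 neutrophil markers (middle) and Cxcr2 against the same mean (right), all as log2 ratios of lung over reference RNA with 1 symbol per array. Rings mark the 5 arrays that are highest for both Cxcl5 and Cxcr1. The r with the neutrophil markers is 0.69 for Cxcr2 (rho 0.49) and 0.24 for Cxcr1 (rho 0.29). The array at the top right of the right panel, left out, lowers the first to 0.46. Cxcr2 also correlated with lists not shown, at 0.56 with mast cell and 0.55 with B cell markers.

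Markers of other cells were read in the same way. All 11 tested monocyte and interstitial macrophage markers lay above 0 at 54 µg, with a median of 0.18, led by Ms4a7 (0.61 ± 0.21) and Cx3cr1 (0.50 ± 0.19). Their mean per array was 1.85 to 2.69 at 54 µg, against 1.66 to 2.18 on the controls. It correlated with Cxcr1 at 0.51 and with Cxcr2 at 0.38. Of 12 alveolar macrophage markers 7 lay above 0, with a median of 0.08 (Atp6v0d2 0.39 ± 0.22, Fabp4 0.29 ± 0.73), and their mean, 3.65 to 4.62 at 54 µg against 3.76 to 4.49 on the controls, correlated with Cxcr1 at 0.58 and with Cxcr2 at 0.22. All 10 B cell markers lay above 0, with a median of 0.44, led by Jchain (1.11 ± 0.36) and Ms4a1 (0.74 ± 0.24). Their mean correlated with Cxcr1 at 0.34 and with Cxcr2 at 0.55. All 12 endothelial markers lay below 0, with a median of -0.32, led by Ednrb (-0.48 ± 0.15) and Cdh5 (-0.38 ± 0.19). Their mean correlated with Cxcl1 at -0.72. Slide means were not removed from this r, although Cxcl1 ratios differed between slides, and the part of slide in it was not tested. Of the epithelial lists, 7 of 11 alveolar type 2 markers lay above 0, with a median of 0.02 (Lamp3 0.20 ± 0.14), and 1 of 9 club and airway secretory markers did, with a median of -0.38 (Bpifa1 -0.99 ± 1.21). For platelets it was 4 of 10 (median -0.06) and for mast cells 3 of 6 (median 0.01). At 18 µg, against the same controls, the medians were -0.28 for endothelial, -1.03 for club, 0.01 for alveolar type 2 and 0.29 for B cell markers. They were 0.08 for monocyte and interstitial macrophage, -0.01 for alveolar macrophage, -0.14 for platelet and -0.03 for mast cell markers. The part of these cell types in the values of Cxcr1, Cxcl5 and Cxcl1 was not tested.

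Heart muscle and clock genes were read as signs of dissection and time of day. Of 8 heart muscle markers 7 lay below 0 at 54 µg, with a median of -0.60 (Myh6 -2.47 ± 1.16, Myl7 -0.86 ± 0.73), and 8 at 18 µg, with a median of -1.25. Their mean per array was 0.30 to 4.91 at 54 µg, against 1.38 to 3.30 on the controls. It correlated with Cxcl5 at 0.35 and Cxcr1 at 0.21. Of 16 clock genes 11 lay below 0, with a median of -0.11 (Dbp -0.60 ± 0.70, Nr1d2 -0.49 ± 0.34), and their mean correlated with Cxcl5 at -0.50. By material at 54 µg the median was -0.46 for NRCWE-043, -0.07 for NRCWE-044 and 0.06 for NRCWE-045. In NRCWE-043, 10 lay below 0 and 6 above, and the unadjusted limma p was under 0.05 for 7 and 2 of them. It was so for 0 in NRCWE-044 and NRCWE-045. A mean over genes that go both ways partly cancels, so it is a coarse sign of time of day. The array with the highest Cxcl5, replicate 1 of NRCWE-043 at 54 µg, had the lowest clock mean of the 34, -0.07. Of 12 immediate early genes 7 lay above 0, with a median of 0.06 (Fos 0.42 ± 0.22, Egr2 0.40 ± 0.16). Their part in the values was not tested.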

How the data were processed

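Lung RNA was hybridised by the authors with Cy5 and reference RNA with Cy3, and the arrays were read with the scanner software Feature Extraction, which the file headers put at version 11.0.1.1. For each of 62976 spots the deposited files hold the median intensity, that of the local background, and a processed intensity. The deposited series table holds log2 ratios, each array's median between -0.04 and -0.00. How it was made is not given in the sources used here. Flags (0 or 1, an other unit) are per the file headers.

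Here, background was corrected with normexp (offset 50), ratios were normalized by loess within arrays and tested with limma 3.58.1 (statmod 1.5.0, R 4.3.3) on 7 group means of 34 arrays, with Benjamini-Hochberg adjustment over 29316 units at 0.05. The code was tested on simulated data. Of 55681 probes, 27235 were named through RefSeq, and of several probes the one brightest on average in Cy5 stood for a gene. Between 52.2 and 69.4% of the probes of an array were above background in Cy5, and 0 spots were saturated. Arrays were grouped by treatment label. The labels state 5 per group, and the title of 1 control array names NRCWE-043 at 0 µg. The number of arrays limits the precision. Genes named were the 5 genes, the 3 nearest to each by r, and of most lists the 2 furthest from 0 in the 54 µg mean. Of the alveolar type 2 and club lists only 1 gene each was named, and of the platelet and mast cell lists none. Units wholly above the controls and some listed genes left untested were also named. The genes and lists were chosen with earlier results of these data known. Alternatives were other background correction, the series table, Aquantile normalization, filters, slide as a block, compared groups only, mean over probes, array weights, each array left out and, added after seeing the data, the lung channel alone and single arrays left out within slides.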

Additional observations from a re-analysis of the deposited data

Results flagged for a closer look

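Dixon's test at 95% was run on 30 sets of values, each 1 gene in 1 group of 5 or 6 arrays. In 2 of the 30, 1 array lay further from its neighbour than the test allows for the range of the set. Chance gives about 1 in 20, but the genes share the same arrays, so the sets are not independent. Cxcr1 was 2.32 on replicate 3 of NRCWE-043 at 18 µg, the highest value of the series, with 0.63 next in its group. That array was also highest for Cxcl1. Its share of spots flagged as irregular, 0.63%, was the highest of the series, where the lowest was 0.40%. Its median lung intensity was 160, against 102 to 130 on the other arrays of slide 2. Cxcl2 was -0.55 on replicate 1 of NRCWE-044 at 54 µg, the lowest of its group, with a lung signal not well above background.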

How the results depend on the processing

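Over 18 comparisons, none of 1666 values of the 5 genes under alternatives passed the threshold (0 called), and the smallest adjusted p was 0.188 (Cxcr1, 54 µg of NRCWE-043 against controls, slide as a random block). Cxcl2 entered the test only without the filter on dim probes. Aquantile normalization leaves ratios as they are. The direction of small, uncalled differences turned. With array weights Cxcr1 between NRCWE-043 and NRCWE-044 at 54 µg was -0.023, and Cxcr2 was -0.00679 at 18 µg of NRCWE-043 and -0.015 in the 54 µg mean. In the authors' deposited series table Cxcr2 at 18 µg of NRCWE-043 was -0.015. In the lung channel alone Cxcl1 at 18 µg of NRCWE-044 was -0.037 and Cxcr2 at 54 µg of NRCWE-044 0.19. With the scanner software's processed signals Cxcl5 at 18 µg of NRCWE-045 was -0.12, and Cxcr2 was -0.79 at 18 µg of NRCWE-043, 0.24 at 54 µg of NRCWE-045, -0.064 in the 18 µg mean and 0.11 between doses. With slide as a fixed or random block, Cxcl5 at 18 µg of NRCWE-045 was -0.12 and -0.033, Cxcr2 at 54 µg of NRCWE-044 0.14 and 0.10, and Cxcr2 at 54 µg of NRCWE-045 0.11 and 0.066. Leaving out single arrays gave ranges across 0. For Cxcl1 at 18 µg of NRCWE-044 it was -0.066 to 0.20. For Cxcl5 it was -0.21 to 0.26 (18 µg, NRCWE-044), -0.10 to 0.37 (18 µg, NRCWE-045), -0.15 to 0.62 (54 µg, NRCWE-045) and -0.021 to 0.45 (18 µg mean). For Cxcr1 it was -0.046 to 0.33 (NRCWE-043 against NRCWE-044 at 54 µg) and -0.088 to 0.35 (NRCWE-044 against NRCWE-045). For Cxcr2 it was -0.026 to 0.077 and -0.0048 to 0.19 (18 and 54 µg, NRCWE-043), -0.091 to 0.16 (54 µg, NRCWE-044), -0.26 to 0.81 and -0.14 to 0.026 (18 and 54 µg, NRCWE-045), -0.017 to 0.34 and -0.023 to 0.080 (18 and 54 µg means) and -0.32 to 0.037 (between doses). Counts of all units called also moved. NRCWE-043 against NRCWE-045 at 18 µg, 126 here, was 0 with array weights, in the lung channel alone or with only the groups compared, 3 with processed signals, 21 and 397 with slide fixed and random, and 0 to 428 with arrays left out. NRCWE-043 against NRCWE-044 at 18 µg, 3 here, was 6 with array weights, 1 in the series table, with probe means or processed signals, 0 and 11 with slide fixed and random, and 0 to 34. NRCWE-043 against NRCWE-045 at 54 µg, 1 here, was 6 with array weights, 0 with only the groups compared or processed signals, 4 with slide random, and 0 to 3. Comparisons at 0 here were as follows. NRCWE-043 against NRCWE-044 at 54 µg was 2 with array weights, and 1 and 22 with slide fixed and random. NRCWE-044 against NRCWE-045 at 54 µg was 5 with array weights, 1 with processed signals and 6 with slide random. At 54 µg against controls NRCWE-044 was 29 with array weights, 1 with only the groups compared, 1 and 8 with slide fixed and random, and 0 to 13. NRCWE-045 was 1 in the lung channel alone and with slide fixed. The 54 µg mean was 3 with array weights, 4 with slide random and 0 to 6. NRCWE-043 at 54 µg was 0 to 3. NRCWE-044 at 18 µg was 5 with only the groups compared, and 54 against 18 µg of it was 1 with array weights and 0 to 3. With arrays left out, NRCWE-044 against NRCWE-045 at 18 µg was 0 to 133, NRCWE-045 at 18 µg against controls 0 to 110 and 54 against 18 µg of it 0 to 21. The cause was not tested.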
